A study of Mus musculus with 8 samples.

Results

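The vascular endothelial growth factor (VEGF) family comprises 10 genes here, the ligands Vegfa, Vegfb, Vegfc, Vegfd and Pgf, the receptors Flt1, Kdr and Flt4, and the co-receptors Nrp1 and Nrp2. They were chosen by gene name, as the secreted VEGF proteins of the mouse and the membrane proteins that bind them, and all 10 were found among the 54532 genes of the expression table and passed the filter on low values that left 25402 genes for testing. Total RNA was sequenced from 4 corneas of BALB/c mice (called BALB/cN by the study) and 4 corneas of C57BL/6N mice, both inbred strains. No transgene or treatment is named for either group. The mice were males, and their age is not given in the sources used here. The corneas served to rank the genes of a locus on chromosome 17 that had been linked to lymphatic vessels at the corneal margin in crosses of these strains, and Vegfa lies in that locus. The study attributes another locus of this cross to genetic differences in the tyrosinase gene, Tyr, which is among the pigment cell genes used below. Nothing in the labels says whether the 4 corneas of a strain came from separate mice, so p-values measure only the spread between these samples.

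VEGF proteins are secreted as dimers and act through receptor tyrosine kinases on the surface of endothelial cells. VEGF-A, the product of Vegfa, binds the receptors encoded by Flt1 (VEGFR-1) and Kdr (VEGFR-2) and drives the growth of blood vessels, while VEGF-C and VEGF-D bind the receptor encoded by Flt4 (VEGFR-3) and drive the growth of lymphatic vessels. The neuropilins, encoded by Nrp1 and Nrp2, hold the ligands beside these receptors. The centre of the cornea normally has neither kind of vessel, its blood and lymphatic vessels lie in the surrounding limbus, and a secreted form of VEGFR-1 that traps VEGF-A is known to help keep the cornea clear.

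Levels are given as regularized log (rlog) values, which the authors derived from read counts. They are on a log2 scale and normalised for library size, and they are drawn towards the mean of a gene where few reads were counted, so for genes with few reads the rlog difference is smaller than the log2 fold change. Differences are BALB/c minus C57BL/6N. The adjusted p-value comes from limma over all genes tested, and a gene was called where it was no higher than 0.01. The table holds no counts, so the depth behind each value is unknown. Over the genes tested, the difference between corneas of one strain had a standard deviation of 0.17 to 0.38 for the 12 pairs.

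The corneas were not alike in tissue, and the split did not follow strain. The summed level of 9 keratocyte genes of the stroma, such as the proteoglycan genes Kera, Lum and Dcn, was 16.77 (log2) in BALB/c replicate 2, 16.05 in C57BL/6N replicate 3 and 16.12 in C57BL/6N replicate 4, and 18.03 to 18.45 in the other 5 corneas. In 7 of the 9 genes those 3 corneas lay below all others, as they did in 9 of 12 macrophage genes and 4 of 5 genes of the corneal endothelium. In BALB/c replicates 1 and 4 the summed level of 7 pigment cell genes was 13.59 and 14.56, against 9.18 to 11.74 in the other corneas, and these 2 corneas were above all others in 7 of 7 pigment cell genes, 10 of 12 lens genes, 4 of 6 pericyte genes and 12 of 15 genes of blood vessel endothelium. The epithelial genes of the cornea, headed by the keratins Krt12 and Krt5, summed to between 20.89 and 21.09 in all 8 corneas. Of 8 genes of lymphatic endothelium, Ccl21a was listed at 0 in every cornea, Mmrn1 had an rlog value of -2.1 and Lyve1 of 1.3 to 1.4, while Foxc2 lay between 3.3 and 4.2, Prox1 between 4.4 and 5.3, Reln between 4.9 and 8.9, Pdpn between 11.30 and 12.04 and Nr2f2 between 12.4 and 12.8. The summed level of the list, nearly all of it from Nr2f2 and Pdpn, was 13.14 to 13.35 in the 8 corneas. For members whose highest or lowest values lay in these corneas, the difference is also given without them. Where a stromal or pigment cell level serves as a covariate, it is the mean rlog value of the list, not the summed level. The mean stromal level was 10.72 in BALB/c replicate 2, 10.29 and 10.24 in C57BL/6N replicates 3 and 4, and 12.07 to 12.82 in the other 5 corneas. It includes Thy1 and Ptgds, which were highest in BALB/c replicates 1 and 4.

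Of the 10 family members, 1 was called, Vegfa, where 5.74% of all genes tested were called (2.83% higher and 2.91% lower in BALB/c). With the threshold at 0.05, Vegfa, Vegfb and Flt4 passed, 3 of 10, all higher in BALB/c, where 11.2% of all genes passed (5.56% higher and 5.63% lower in BALB/c). The values of the strains did not overlap for 4 members, Vegfa, Vegfb, Vegfd and Flt4, again all higher in BALB/c, against 18.3% of all genes (8.75% higher and 9.58% lower in BALB/c). The difference was above 0 for 9 of the 10 members and for 52.8% of all genes, and its median was 0.52 for the members and 0.01 for all genes tested.

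**Figure D1:**
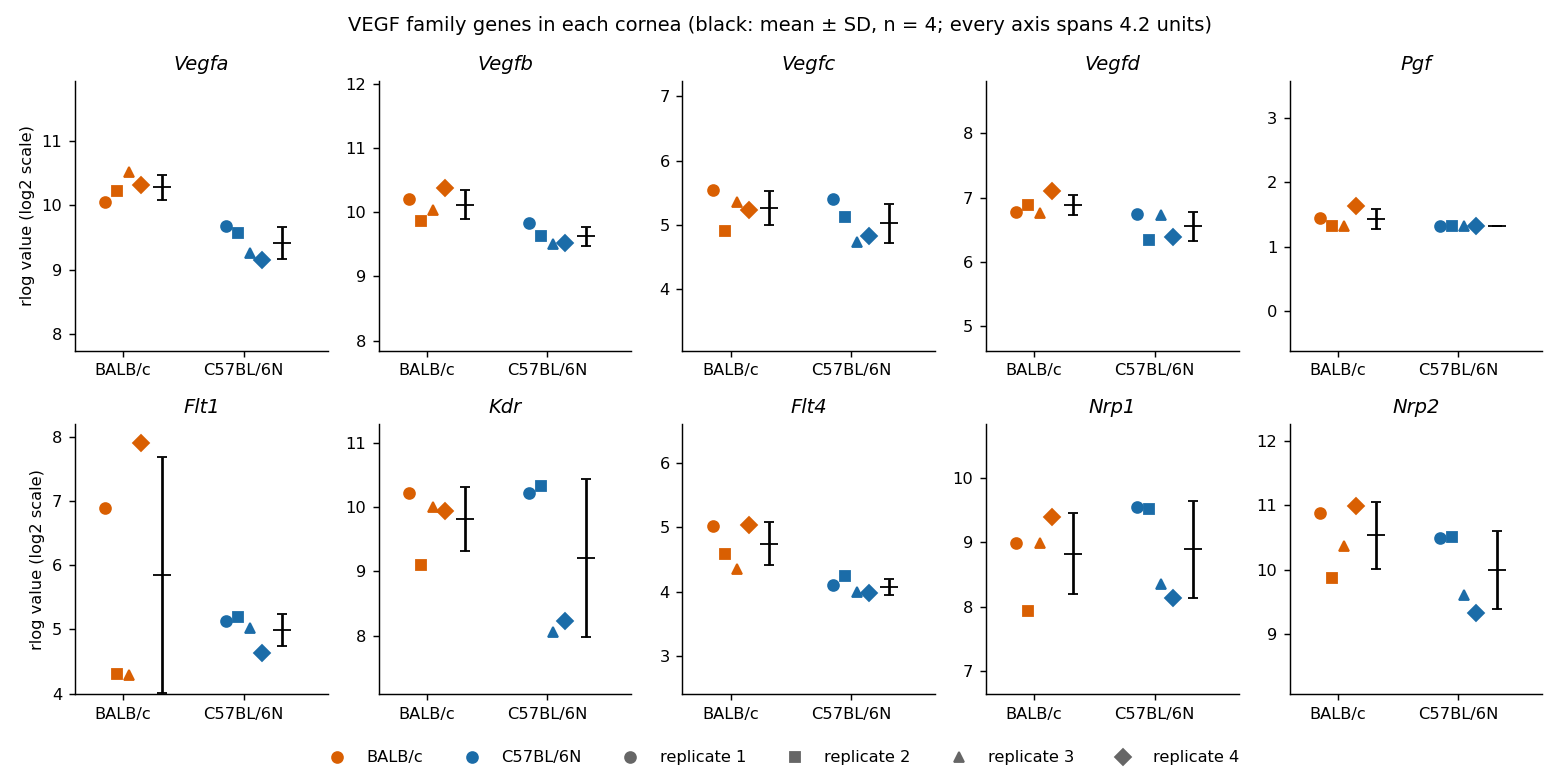
Rlog values (log2 scale, y axis) of the 10 VEGF family genes in 4 BALB/c and 4 C57BL/6N corneas; each point is a cornea, its shape gives the replicate number, and the black mark and bar give the mean and SD (n = 4). The strains lie apart for Vegfa, Vegfb, Vegfd and Flt4, while Flt1, Kdr, Nrp1 and Nrp2 vary within a strain by as much as 3.62 units.

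Among the ligands, Vegfa was higher in BALB/c corneas and had the smallest adjusted p-value of the family. Vegfa (ENSMUSG00000023951) lies on the minus strand of chromosome 17 at 46016993-46032369 (GRCm38), has 13 annotated transcripts, and its rlog value was 10.05, 10.23, 10.53 and 10.32 in BALB/c replicates 1 to 4 and 9.68, 9.57, 9.25 and 9.15 in C57BL/6N replicates 1 to 4. Every BALB/c cornea was above every C57BL/6N cornea. The means were 10.28 ± 0.20 and 9.41 ± 0.25 (SD, n = 4 each), a difference of 0.87 with a standard error of 0.14 and a 95% confidence interval of 0.56 to 1.17 (adjusted p = 0.00291). An exact two-sided permutation test gave p = 0.0286, the smallest value that 4 against 4 corneas allow. With the stromal level of each cornea as a covariate the difference was 0.80 (adjusted p = 0.000557), with the pigment cell level as a covariate it was 0.89 (adjusted p = 0.00478), and without the 3 corneas of low stromal level it was 0.67 (adjusted p = 0.0336). Without BALB/c replicates 1 and 4 it was 0.97 (adjusted p = 0.0277). The adjusted p-value also rose above 0.01 when single corneas were left out, at 0.0103 without BALB/c replicate 3, 0.0115 without BALB/c replicate 4 and 0.0120 without C57BL/6N replicate 3, and it was 0.58 once p-values were rescaled to an empirical null, under which no gene at all was called (0 of 25402 by limma, with 1725 genes at an unadjusted p-value under 0.05). The study had already called Vegfa higher in BALB/c from these corneas, with DESeq2 on counts and p-values recalibrated in another way. Its recalibration left genes called.

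None of the tested neighbours of Vegfa on chromosome 17 was called. For the 3 closest tested protein-coding genes to its left and the 3 to its right, the differences lay between -0.26 for Tmem63b, an ion channel gene (adjusted p = 0.0921), and 0.14 for Rsph9, a gene of the ciliary radial spoke (adjusted p = 0.393). Mrpl14 and Mrps18a, both genes of mitochondrial ribosomal proteins, differed by 0.14 and 0.12, Mad2l1bp by -0.08 and 1600014C23Rik by 0.01. The tested protein-coding genes whose centred rlog values were closest to those of Vegfa over the 8 corneas were Runx2, Ptges and Stau2, with a root mean square distance of 0.12 for each. Runx2, a transcription factor gene, also lies on chromosome 17, at 44495987-44814797, with means of 10.55 ± 0.10 in BALB/c and 9.70 ± 0.18 in C57BL/6N (SD, n = 4 each). These genes were selected for following Vegfa, so their own strain differences are a description only.

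Vegfb was the other abundant ligand gene. VEGF-B binds VEGFR-1 and neuropilin 1 and is best known for its role in heart muscle and in fat uptake. Vegfb (ENSMUSG00000024962), on the minus strand of chromosome 19 at 6982473-6987651, had rlog values of 10.20, 9.86, 10.03 and 10.38 in BALB/c replicates 1 to 4 and of 9.84, 9.63, 9.51 and 9.52 in C57BL/6N replicates 1 to 4. The strains lay next to each other without overlap, the lowest BALB/c cornea being the one with the low stromal level. The difference of 0.49 ± 0.12 (SE, n = 4 each) had a 95% confidence interval of 0.23 to 0.76 and did not pass the threshold (adjusted p = 0.0254). It did pass with the stromal level as a covariate, at 0.42 (adjusted p = 0.00381). The highest Vegfb values were those of BALB/c replicates 1 and 4, and without these 2 corneas the difference was 0.32 (adjusted p = 0.215).

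The sequences just upstream of these 2 ligand genes are shown because Vegfa and Vegfb had the highest levels per kb of exon in the family and strains that did not overlap. Each run holds the 250 bases before the RefSeq start of the gene in GRCm38.p6, a C57BL/6J genome, read 5′ to 3′ on the strand of the gene, with GC boxes (GGGCGG on either strand) in capitals. The Vegfa window is chr17:46032378-46032627 on the minus strand, and the Vegfb window is chr19:6987652-6987901 on the minus strand.
Vegfa: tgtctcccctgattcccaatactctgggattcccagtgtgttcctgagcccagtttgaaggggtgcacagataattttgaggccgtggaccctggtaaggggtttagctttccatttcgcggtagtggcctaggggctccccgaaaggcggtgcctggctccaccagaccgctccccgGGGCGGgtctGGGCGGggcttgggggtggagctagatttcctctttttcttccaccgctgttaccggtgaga
Vegfb: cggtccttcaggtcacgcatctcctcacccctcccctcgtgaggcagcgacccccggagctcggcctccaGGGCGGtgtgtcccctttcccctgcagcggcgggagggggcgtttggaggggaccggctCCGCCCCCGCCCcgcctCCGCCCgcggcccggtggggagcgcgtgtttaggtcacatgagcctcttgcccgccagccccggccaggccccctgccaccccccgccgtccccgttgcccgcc
The Vegfa window held 2 GC boxes and 59.2% G and C, and the Vegfb window held 4 GC boxes, some of them side by side, and 76.4% G and C. All 10 members had a RefSeq start, and 9 of the 10 windows held a GC box, against 32.7% of the 32851 windows of the table. TATAAA, on either strand, was found in 2 of the 10 windows (Flt1 and Vegfd) and in 12.4% of all windows. ACGTG, the core of the sequence bound by hypoxia-inducible factors, was found on neither strand in the 10 windows, against 16.6% of all windows. Bases further upstream than 250 were not searched, so a site there would be missed. For Vegfa and Pgf, which have 2 RefSeq starts each, the start nearer to the 5′ end of the annotated gene was used, and the window of the second Vegfa start, inside the gene, held 1 ACGTG. None of the 3 motifs contains another, and a match is a description of letters in the reference genome and not of a bound site or of the BALB/c sequence.

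Vegfd, one of the ligands of VEGFR-3, was the more abundant of the lymphatic ligand genes. Vegfd (ENSMUSG00000031380), on the plus strand of chromosome X at 164373378-164402650, had rlog values of 6.78, 6.89, 6.76 and 7.10 in the BALB/c corneas and of 6.75, 6.33, 6.73 and 6.39 in the C57BL/6N corneas. The strains were separated by less than 0.01, between 6.756 in BALB/c replicate 3 and 6.749 in C57BL/6N replicate 1. The difference was 0.33 with a 95% confidence interval of 0.04 to 0.61 and did not pass the threshold (adjusted p = 0.148).

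Vegfc, the main growth factor of lymphatic vessels, did not differ beyond its spread. Vegfc (ENSMUSG00000031520), on the plus strand of chromosome 8 at 54077606-54187096, had rlog values of 5.54, 4.91, 5.36 and 5.23 in BALB/c and of 5.40, 5.12, 4.74 and 4.82 in C57BL/6N. The strains overlapped, with a difference of 0.24 and a 95% confidence interval of -0.15 to 0.63 (adjusted p = 0.457). The 3 corneas of low stromal level were the 3 lowest for Vegfc, and with the stromal level as a covariate the difference was 0.12 (adjusted p = 0.522). Without these 3 corneas it was 0.11 (adjusted p = 0.673).

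Pgf, which encodes placental growth factor, a ligand of VEGFR-1, had the lowest level of the family. Pgf (ENSMUSG00000004791), on the minus strand of chromosome 12 at 85166635-85177790, had an rlog value of 1.32 in all 4 C57BL/6N corneas and in BALB/c replicates 2 and 3. Only BALB/c replicates 1 and 4 were above that level, at 1.44 and 1.64, and these are the corneas with the most pigment cell transcripts. They were also above all others in 12 of 15 genes of blood vessel endothelium. The difference of 0.11 had a 95% confidence interval of -0.03 to 0.25 (adjusted p = 0.34), and without the 2 corneas it was -0.0012.

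Flt4, the gene of VEGFR-3, was the receptor gene whose strains did not overlap. Flt4 (ENSMUSG00000020357), on the plus strand of chromosome 11 at 49609263-49652739, had rlog values of 5.02, 4.58, 4.35 and 5.04 in BALB/c and of 4.10, 4.25, 3.99 and 3.98 in C57BL/6N. Every BALB/c cornea was higher, by a mean of 0.67 ± 0.16 (SE, n = 4 each) and a 95% confidence interval of 0.32 to 1.02, which did not pass the threshold (adjusted p = 0.023). It passed with the pigment cell level as a covariate, at 0.57 (adjusted p = 0.00912), and without BALB/c replicate 3, at 0.80 (adjusted p = 0.0081). BALB/c replicates 1 and 4 were again the highest, and without both of them the difference was 0.39 (adjusted p = 0.135).

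Flt1, the gene of VEGFR-1, varied more between corneas than any other member. Flt1 (ENSMUSG00000029648), on the minus strand of chromosome 5 at 147561604-147726011, had rlog values of 6.89, 4.30, 4.28 and 7.91 in BALB/c replicates 1 to 4 and of 5.14, 5.19, 5.01 and 4.64 in C57BL/6N replicates 1 to 4. The BALB/c corneas lay on both sides of the C57BL/6N corneas, replicates 1 and 4 above and replicates 2 and 3 below. The mean difference of 0.85 therefore had a 95% confidence interval of -0.82 to 2.52 (adjusted p = 0.536). Without BALB/c replicates 1 and 4 the difference was -0.70 (adjusted p = 0.069), and with the pigment cell level as a covariate it was 0.27 (adjusted p = 0.522). In the same 2 corneas Cdh5, the cadherin of endothelial junctions, was at 6.5 and 7.5 against 4.5 to 5.4 elsewhere, and Rgs5, a pericyte gene, was at 8.2 and 9.2 against 4.5 to 5.9. The part of vessels, pigment cells or lens in the Flt1 values was not tested. In RNA from whole tissue, more cells of a type and more RNA per cell cannot be told apart. Counts per gene also do not separate the membrane-bound from the secreted form of VEGFR-1, which come from different transcripts of Flt1, of which 6 are annotated. The same limit holds for Kdr and Flt4. The study describes soluble VEGFR-2 and VEGFR-3, and membrane-bound VEGFR-3, in the corneal epithelium.

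Kdr, the gene of VEGFR-2, had the highest level per kb of exon of the 3 receptor genes, and its values fell into groups of corneas that cut across the strains. Kdr (ENSMUSG00000062960), on the minus strand of chromosome 5 at 75932827-75978458, had rlog values of 10.23, 9.10, 9.999 and 9.94 in BALB/c and of 10.22, 10.33, 8.06 and 8.23 in C57BL/6N. The 3 lowest corneas were those with the low stromal level, BALB/c replicate 2 and C57BL/6N replicates 3 and 4. The difference was 0.61 with a 95% confidence interval of -0.59 to 1.80 (adjusted p = 0.536). With the stromal level as a covariate it was 0.19, with an interval of -0.15 to 0.53 (adjusted p = 0.47), and without the 3 corneas it was -0.22 (adjusted p = 0.252). The summed level of the 15 genes of blood vessel endothelium split the corneas in the same way, at 10.62, 10.23 and 10.20 in these 3 and 11.52 to 11.75 in the other 5. Most of that sum came from the transcription factor gene Erg, and of the 15 genes only Erg was lowest in the 3 corneas. The mean rlog value of the list did not split them, at 4.29, 4.44 and 4.33 in the 3 corneas and 4.36 in BALB/c replicate 3. The part of blood vessels in the Kdr values was not tested, and that of stromal tissue was not tested beyond these models.

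The co-receptor genes followed the same split of corneas. Nrp1 (ENSMUSG00000025810), on the plus strand of chromosome 8 at 128358604-128503363, had rlog values of 8.99, 7.93, 8.99 and 9.40 in BALB/c and of 9.55, 9.53, 8.35 and 8.14 in C57BL/6N. It was the 1 member with a difference below 0, at -0.06 with a 95% confidence interval of -0.95 to 0.82 (adjusted p = 0.944). With the stromal level as a covariate the difference was -0.38, with an interval of -0.59 to -0.16 (adjusted p = 0.0224), which did not pass 0.01. Without the 3 corneas of low stromal level it was -0.41, with an interval of -0.74 to -0.08 (adjusted p = 0.13).

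Nrp2, whose product is the partner of VEGFR-3 on lymphatic endothelium, did not pass the threshold either. Nrp2 (ENSMUSG00000025969), on the plus strand of chromosome 1 at 62703285-62818695, had rlog values of 10.89, 9.87, 10.37 and 10.998 in BALB/c and of 10.497, 10.51, 9.61 and 9.33 in C57BL/6N. The 3 corneas of low stromal level were the lowest and BALB/c replicates 1 and 4 the highest. The difference was 0.54 with a 95% confidence interval of -0.18 to 1.27 (adjusted p = 0.347), and with the stromal level as a covariate it was 0.29, with an interval of 0.11 to 0.48 (adjusted p = 0.0386). Without the 3 corneas of low stromal level it was 0.25 (adjusted p = 0.464), and without BALB/c replicates 1 and 4 it was 0.13 (adjusted p = 0.914). A gene of unproven status on the same strand, Gm37121, shares 2556 bases with the span of Nrp2 at a mean rlog value of 4.43, and the antisense gene Gm29083 shares 3351 bases at -0.30. No annotated gene overlaps the other members except a microRNA gene inside Nrp1, which was at 0.

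**Figure D2:**
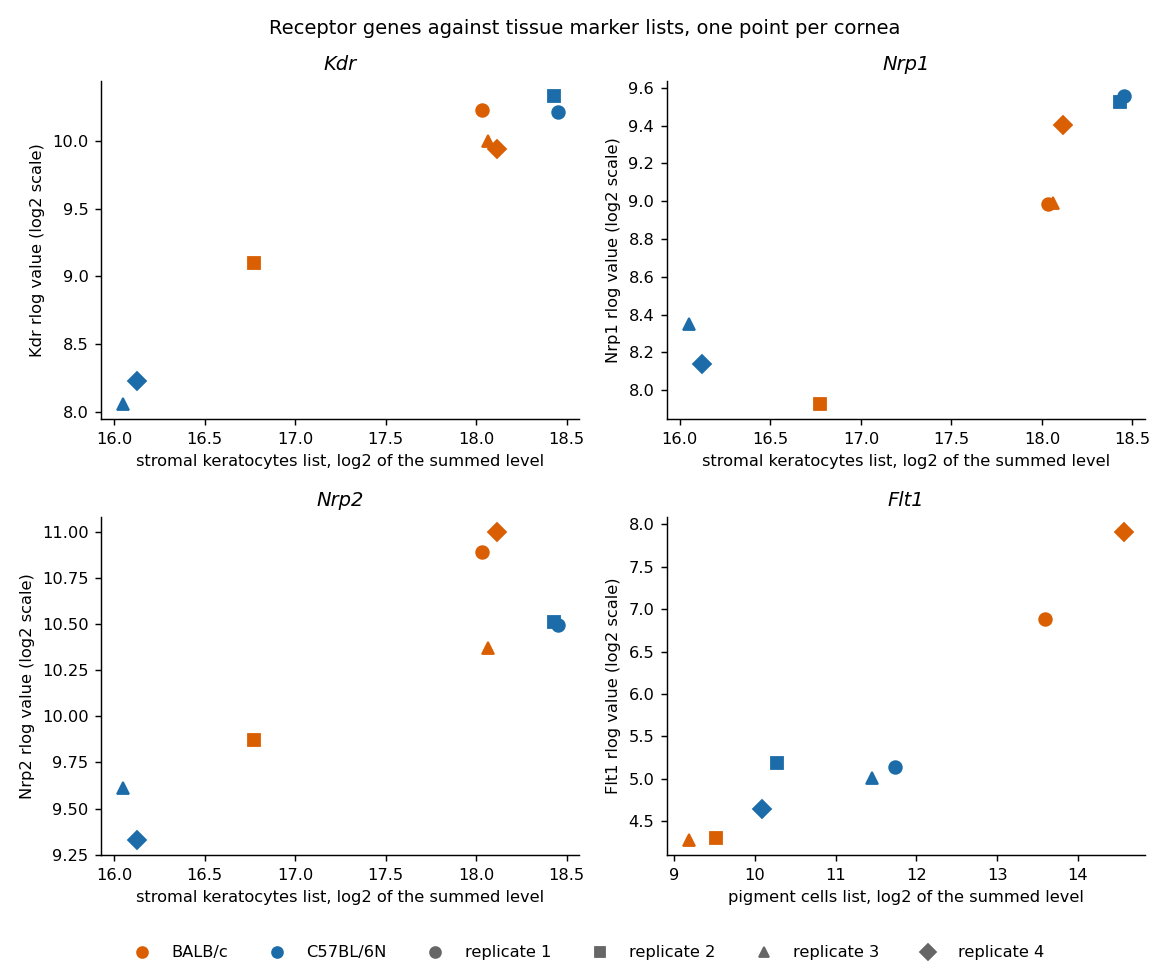
Rlog values of Kdr, Nrp1 and Nrp2 (y axes, log2 scale) against the log2 of the summed level of the stromal keratocyte genes, and of Flt1 against that of the pigment cell genes; each point is one of 8 corneas, coloured by strain, with its shape giving the replicate. The 3 corneas with a stromal level of 16.05 to 16.77 are the lowest for Kdr, Nrp1 and Nrp2, and BALB/c replicates 1 and 4, with a pigment level of 13.59 and 14.56, are the highest for Flt1.

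Across the family, 5 of the 10 members (Vegfb, Pgf, Flt1, Flt4 and Nrp2) had their highest values in BALB/c replicates 1 and 4, and 4 of 10 (Vegfc, Kdr, Nrp1 and Nrp2) had their lowest in the 3 corneas of low stromal level. Vegfa and Vegfd were the members in neither group. How many of all genes tested had either order was not counted, so these counts, and those of the lists, are descriptions only. The stromal covariate narrowed the 95% confidence interval of every member but Vegfd, and the pigment covariate that of every member but Vegfa, Vegfc and Kdr. The differences of all 10 members kept their sign in the 3 models. The intervals of Vegfa, Vegfb, Vegfd and Flt4, the members whose strains did not overlap, stayed above 0 in all 3 models.

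**Figure D3:**
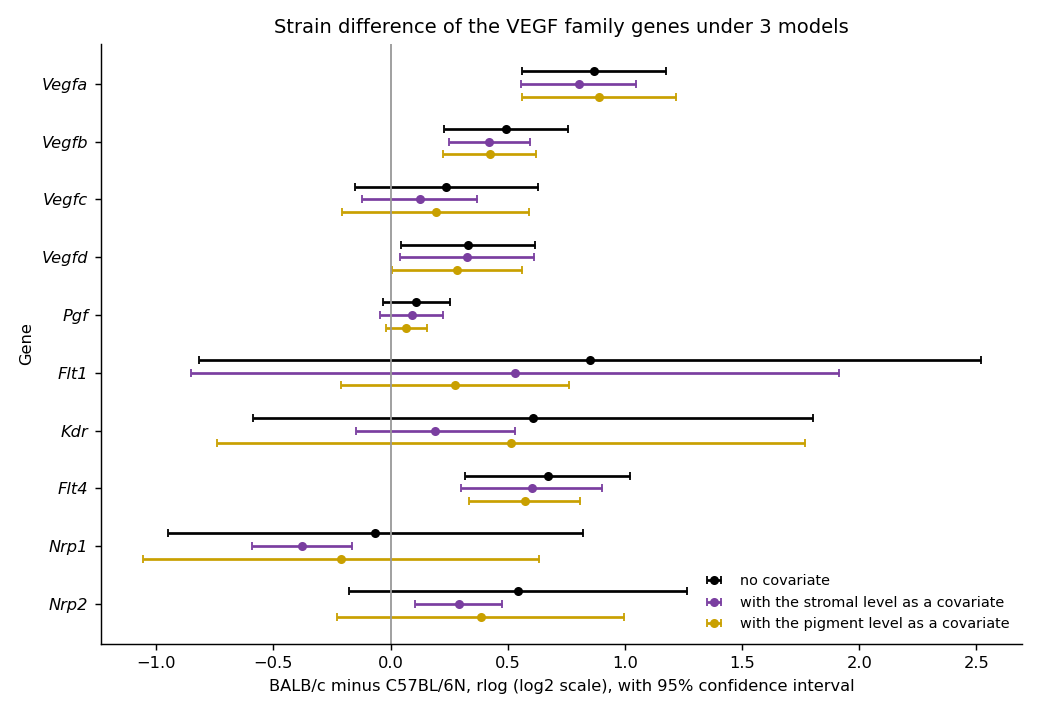
Difference BALB/c minus C57BL/6N of the 10 genes (x axis, rlog units on the log2 scale) with 95% confidence intervals, from limma without a covariate (black), with the stromal level (purple) and with the pigment cell level (yellow) of each cornea as a covariate (n = 4 corneas per strain). Each covariate is the mean rlog value of its list. The interval of Kdr spans -0.59 to 1.80 without a covariate and -0.15 to 0.53 with the stromal level, and that of Vegfa stays above 0 in each model.

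To compare levels between genes, the log2 of the summed exon length in kb was subtracted from the rlog value of each gene. On this scale of level per kb, the order of the means over 8 corneas was Vegfb at 9.19, Vegfa at 7.75, Nrp2 at 6.69, Kdr at 6.34, Nrp1 at 5.57, Vegfd at 5.45, Vegfc at 3.85, Flt1 at 1.66, Flt4 at 1.37 and Pgf at -0.16. Vegfb was above Vegfa in 8 of 8 corneas by a mean of 1.44, and their ranges did not overlap. Likewise Vegfd lay apart above Vegfc, by 1.6, and Flt4 apart above Pgf, by 1.53. The ranges of all other neighbours in the order overlapped, although Vegfa was above Nrp2 within 8 of 8 corneas. Nrp2 and Kdr, Nrp1 and Vegfd, and Flt1 and Flt4 had the same order in 5 of 8 corneas only. With the length of the longest transcript in place of all exons, Nrp1 (6.99) moved above Kdr (6.95), and the other places did not change.

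Ligand and receptor genes can be set against each other on the same scale. Vegfa exceeded Kdr per kb in 8 of 8 corneas, by 0.31 to 2.27, and exceeded Flt1 by 4.07 to 7.90. Vegfc exceeded Flt4 by 1.94 to 3.05 and Vegfd exceeded Flt4 by 3.53 to 4.52, again in 8 of 8 corneas. Kdr exceeded Flt1 by 2.61 in BALB/c replicate 4, where Flt1 was highest, and by up to 6.30 in BALB/c replicate 3.

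**Figure D4:**
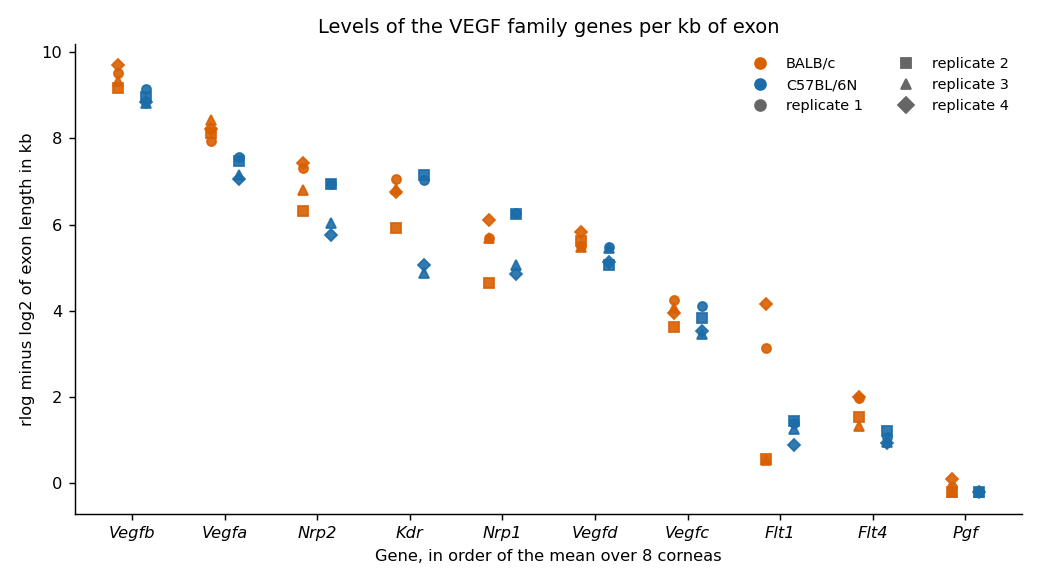
Level per kb of exon (y axis, rlog value minus log2 of exon length in kb) of the 10 genes, in the order of their mean over 8 corneas; each point is a cornea, coloured by strain, with its shape giving the replicate. Vegfb and Vegfa lead at means of 9.19 and 7.75, and Pgf is last at -0.16.

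The genes around the family were described with 7 lists that hold 99 genes, of which 95 were tested. Of these, 8 were called, 5 higher and 3 lower in BALB/c, which is 8.42% of them against 5.74% of all genes tested, and their median difference was 0.07. With the threshold at 0.05, 13 were called.

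VEGF-C and VEGF-D are made as precursors and are cut to their active form by proteases. Of 8 tested genes of this maturation, none was called, at 0.01 or at 0.05. Ccbe1, which brings the protease to VEGF-C, had means of 8.61 in BALB/c and 8.52 in C57BL/6N, and Adamts3, that protease, had 6.91 and 6.73. The largest difference was 0.59 for Adamts2 (adjusted p = 0.541).

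Vegfa is a classical target of hypoxia-inducible factors, so the genes of oxygen sensing and other targets were listed beside it. Of 10 oxygen sensing genes 1 was called, Egln3, a prolyl hydroxylase that marks these factors for degradation. Egln3 was at 14.18, 14.46, 14.38 and 14.21 in BALB/c and at 14.74, 14.78, 14.87 and 14.99 in C57BL/6N, and fell by 0.54 in BALB/c (adjusted p = 0.00152). The genes of the factors themselves, Hif1a, Epas1 and Arnt, differed by 0.09, -0.10 and 0.02, and none was called. The part of hypoxia in the differences of Vegfa, of Egln3 and of the genes listed next was not tested.

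Of 17 other hypoxia-responsive genes, 2 were called, both higher in BALB/c, and 14 had a difference above 0, with a median of 0.20. Over all genes tested, 5.74% were called, 52.8% had a difference above 0, and the median was 0.01. Ankrd37 had means of 5.26 ± 0.22 and 4.40 ± 0.09 (SD, n = 4 each), a difference of 0.86 (adjusted p = 0.00107). Pfkfb3, a regulator of glycolysis, had means of 11.29 ± 0.17 and 10.55 ± 0.06 (SD, n = 4 each), a difference of 0.73 (adjusted p = 0.000375). Other members of the list did not pass the threshold, with a difference of 0.37 for the glucose transporter gene Slc2a1 (adjusted p = 0.195), 0.89 for Car9, a carbonic anhydrase gene (adjusted p = 0.203), and -0.22 for Ndrg1 (adjusted p = 0.0381). For Slc2a1, Car9, Adm, P4ha1 and P4ha2, the 3 corneas of low stromal level were the lowest of all, and the part of stromal tissue in these values was not tested.

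Of 33 tested genes that carry the signal of the receptors into the cell, 3 were called, and the median difference was -0.01. Prkcb, a protein kinase C gene, had the largest difference of the 95 genes, at 11.17, 11.12, 11.21 and 11.09 in BALB/c and 9.69, 10.06, 9.79 and 9.59 in C57BL/6N, a difference of 1.36 (adjusted p = 1.8e-05). Prkca, its relative, was higher by 0.45 (adjusted p = 0.00186). Pik3r1, the regulatory subunit of phosphoinositide 3-kinase, fell by 0.37 (adjusted p = 0.00655).

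The neuropilins also serve class 3 semaphorins with plexins as signalling partners. Of 12 such genes 2 were called, Sema3d, which was higher by 0.58 in BALB/c (adjusted p = 0.00553), and Plxna3, which fell by 0.51 (adjusted p = 0.00805). None of 8 tested genes of endothelial tip cells, the leading cells of a sprout, was called, although Unc5b (0.45, adjusted p = 0.018) and Pdgfb (0.52, adjusted p = 0.0406) passed 0.05. None of 8 tested genes of the related platelet-derived growth factor family and its receptors was called. In 4 of the 9 listed PDGF relatives and 3 of the 9 listed tip cell genes BALB/c replicates 1 and 4 were above all other corneas.

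**Figure D5:**
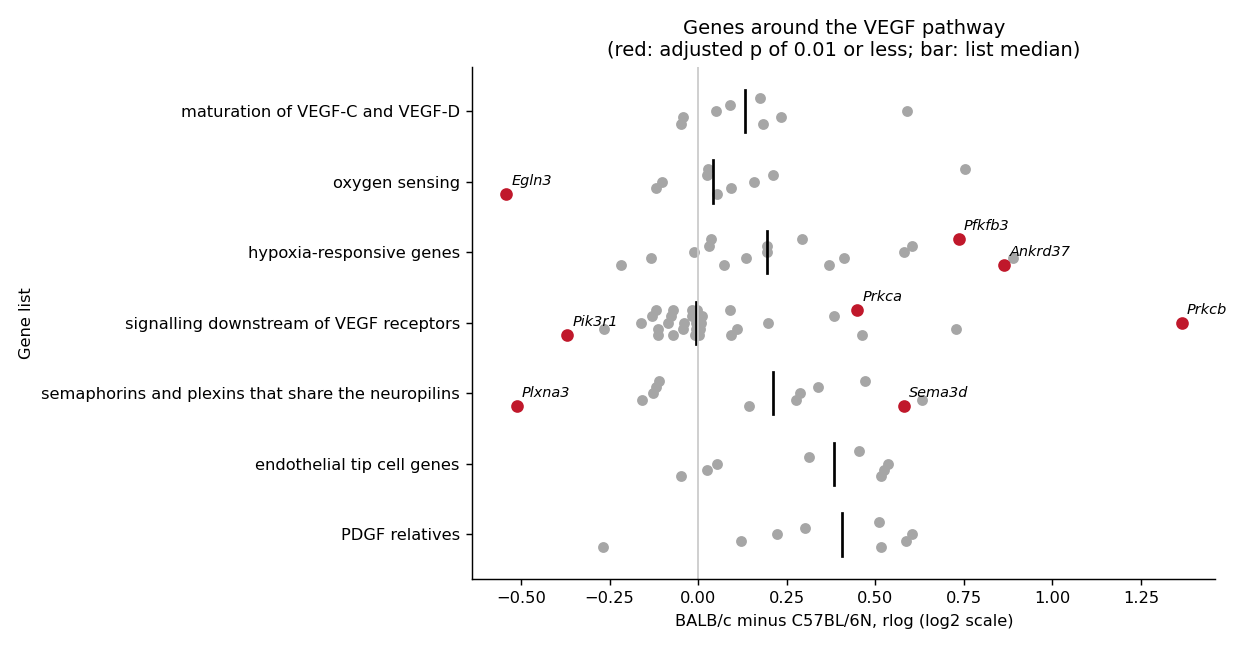
Difference BALB/c minus C57BL/6N (x axis, rlog units on the log2 scale) of each tested gene in 7 lists around the VEGF pathway (y axis); red points with names had an adjusted p-value no higher than 0.01, grey points were not, and the bar is the median of the list. The 8 called genes lie on both sides of 0, from -0.54 for Egln3 to 1.36 for Prkcb.

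Genes were called between the strains in 1 of the marker lists, that of the conjunctiva. Its summed level, which is nearly that of the mucin gene Muc4 alone, was 19.14 to 19.56 in BALB/c and 19.71 to 19.97 in C57BL/6N. Of its 7 genes, 4 were called, all lower in BALB/c, among them the keratin genes Krt13, which fell by 2.51 (adjusted p = 1e-06), and Krt4, which fell by 1.17 (adjusted p = 0.000879), while Krt8 and the mucin gene Muc5ac had differences of 0.40 (adjusted p = 0.0111) and 2.19 (adjusted p = 0.0225) in the opposite direction. No gene was called in the lists of blood vessel endothelium (0 of 15), lymphatic endothelium (0 of 6 tested), pericytes (0 of 6), macrophages (0 of 12), stromal keratocytes (0 of 9), corneal epithelium (0 of 8), corneal endothelium (0 of 5), lens (0 of 12) and pigment cells (0 of 7), at limma's adjusted p-value of 0.01. Without a called change, the lists still had median differences of 0.42 for blood vessel endothelium, 0.63 for stromal keratocytes, 0.75 for pigment cells and 0.82 for lens, each above the 0.01 of all genes. The summed level of the pericyte list, nearly all of it from Notch3, was 14.97 to 15.10 in BALB/c and 14.72 to 14.97 in C57BL/6N, with 14.9717 as the lowest and 14.9716 as the highest value, so that the strains did not overlap. The part of conjunctival tissue or pericytes in the differences of Vegfa, Vegfb, Vegfd and Flt4 was not tested.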

How the data were processed

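RNA was extracted from naive mouse corneas (RNeasy Micro kit) and made into strand-specific total RNA libraries (Ovation RNA-seq system), sequenced as paired reads. The authors used cutadapt for trimming, discarded reads of ribosomal or transfer RNA, mapped the others with TopHat2 2.1.1 to a GRCm38 pseudo-genome of each strain, moved positions back with Lapels and counted them on Ensembl exons with HTSeq 0.7.1. Whether counting used the strand is not given in the sources used here. The deposited table holds the authors' rlog output from DESeq2 1.30, normalised for library size on a log2 scale, with decimal commas and no counts, so depth is unknown. All 8 columns were mapped by the sample labels, and 0 were left unused.

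From these values, genes whose mean was 0 or higher were compared with limma 3.58.1 (R 4.3.3; lmFit, eBayes with a variance trend, Benjamini-Hochberg adjustment). The authors used DESeq2 on counts with recalibrated p-values. An exact permutation test of single genes, two-sided, was made with scipy 1.17.1. The procedure was tested on simulated data. Positions come from a GRCm38 annotation that held 31302 of the 31314 genes not at 0 in all corneas (23218 genes were at 0), and sequences from RefSeq.

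The members, lists and tests were chosen with earlier results of these data known. Genes were named if they were members, called genes of a pathway list (at most the 3 largest), called genes of a marker list (at most 2), the 3 tested protein-coding genes closest to Vegfa on either side, or the 3 most like Vegfa. Other named genes of the lists, chosen after their values were seen, illustrate a list. Summed levels are the log2 of the sum of 2 to the power of the rlog value.

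Alternatives were the replicate number as a block, an empirical null, a robust fit, a fit without the variance trend, quantile normalization, median centring, no filter, a mean of at least log2 of 10, the mean stromal level as a covariate, a threshold of 0.05, the longest transcript, and leaving out each cornea. Leaving out the 2 or 3 corneas that stood apart and the pigment covariate were added after seeing the data. Figures were drawn with matplotlib 3.10.9.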

Additional observations from a re-analysis of the deposited data

Results flagged for a closer look

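In 9 of the 82 groups of 4 corneas examined, 1 cornea lay far from the other 3, by Dixon's test of the gap as a share of the range, and chance alone gives about 1 in 20, or 4.1 groups. No group of a VEGF family member was among them. Among the genes of the pathway lists, Pfkfb3 was low in BALB/c replicate 1, at 11.04 with the next value at 11.35 (0.885 of the range), and Prkca was high in BALB/c replicate 3, at 11.25 with the next at 11.10 (0.884). Krt4 was high in BALB/c replicate 4, at 4.97 with the next at 4.48 (0.897). 1600014C23Rik, a neighbour of Vegfa near the lowest level tested, was high in replicate 1 of both strains (0.833 of the range in BALB/c and 0.989 in C57BL/6N), by 0.50 against 0.41 and 0.46 against 0.39. BALB/c replicate 2 was low for 3 marker lists, with summed levels of 16.77 for stromal keratocytes (next 18.03, 0.938 of the range), 15.10 for corneal endothelium (next 15.41, 0.915) and 10.62 for blood vessel endothelium (next 11.52, 0.871). Most of the blood vessel sum came from Erg alone. The red blood cell list was low in BALB/c replicate 1, at 6.00 with the next at 6.10 (0.933).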

How the results depend on the processing

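Of 209 comparisons of a member with an alternative, 191 kept their direction and their side of the threshold. Only Vegfa was called at first, so most of the 191 are uncalled members that stayed uncalled. They include those under the empirical null, where no gene was called, so the count is no measure of stability. Vegfa stayed higher in BALB/c in all 21 alternatives (0.67 to 0.97) and lost its call in 7 of them. With the empirical null (adjusted p = 0.58 for the same 0.87) no gene was called, with the replicate block Vegfa differed by 0.87 at an adjusted p of 0.035, without the 2 corneas of high pigment level by 0.97, and without the 3 of low stromal level by 0.67. Leaving out each cornea in turn gave 0.78 to 0.96 for Vegfa, 0.41 to 0.58 for Vegfb, 0.14 to 0.36 for Vegfc, 0.26 to 0.39 for Vegfd, 0.04 to 0.15 for Pgf, 0.16 to 1.37 for Flt1, 0.22 to 0.98 for Kdr, 0.57 to 0.80 for Flt4, -0.32 to 0.24 for Nrp1 and 0.33 to 0.76 for Nrp2. Nrp1 was above 0 without BALB/c replicate 2 (0.24), C57BL/6N replicate 1 (0.16) and C57BL/6N replicate 2 (0.15). Flt1 turned to -0.70 and Pgf to -0.0012 without the 2 corneas of high pigment level, and Kdr to -0.22 without the 3 of low stromal level. Calls were gained by Flt4 (0.57 with the pigment covariate, 0.80 without BALB/c replicate 3, 0.67 at a threshold of 0.05) and Vegfb (0.42 with the stromal covariate, 0.49 at a threshold of 0.05).

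The number of members called was 3 at a threshold of 0.05, 2 with either covariate, 0 with the empirical null, with the replicate block and without either set of corneas, and 0 to 1 when leaving out each cornea. Genes called over the whole table, 1458 (718 higher, 740 lower), became 2842 (1413, 1429) at 0.05, 0 (0, 0) with the empirical null (smallest adjusted p 0.0946), 447 (219, 228) without the 2 corneas of high pigment level, 852 (411, 441) without the 3 of low stromal level, 958 (413 higher) with median centring, 2391 (1207, 1184) with the stromal covariate, 554 (274, 280) with the replicate block, and 953 to 1163 (485 to 561 higher, 468 to 608 lower) when leaving out each cornea. The 8 called genes of the pathway lists became 13, 0, 2, 4, 4, 11, 2 and 5 to 7 in that order. Deviations of same-numbered corneas correlated at 0.31, -0.53, -0.20 and -0.45. These deviations also carry the differences in tissue between corneas, so the correlations cannot decide whether the numbers mark a pairing. Per kb of the longest transcript, Vegfb was at 9.51, Nrp2 at 7.51, Nrp1 at 6.99 and Pgf at 0.32. Pgf was not tested at a mean of at least log2 of 10. The causes of these changes were not tested. The depth is unknown, and weak genes such as Pgf and Flt4 have shrunken differences.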
